A study of Mus musculus with 7 samples.

Results

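The genes described here carry names from the testis: Spata and Spag (spermatogenesis-associated and sperm-associated antigen genes), Tex (testis-expressed), Odf (outer dense fibre of the sperm tail), Tssk (testis-specific serine kinase) and Tsga (testis-specific gene antigen). They were taken by name alone, as every symbol with one of these stems followed by a digit, except Spag1, Spag6, Spag8, Spag16 and Spag17. The rule found 83 of the 32531 symbols in the tables: 30 Tex, 28 Spata, 8 Odf, 7 Spag, 6 Tssk and 4 Tsga genes. The question was which of these genes were measured in ependymal cells of the brain and which had next to no reads.

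RNA came from adult mice of the Dcdc2a-EGFP/Rpl10a line ES2575, from brain tissue dissected around the ventricles. In TRAP (translating ribosome affinity purification), a transgene fuses EGFP to the ribosomal protein Rpl10a in a chosen cell type, here under Dcdc2a control, and antibodies to EGFP pull down the tagged polysomes with their mRNA. IP libraries (numbers 1, 3 and 4) hold this ribosome-bound RNA, and Input libraries (numbers 1 to 4) hold RNA of the same dissected region of the same line. All 7 libraries therefore carry the transgene. The tag marks every cell in which the Dcdc2a transgene is active, and which cells those are was not measured here other than by marker genes. Sex, exact age, and whether a library came from 1 animal or several are not given in the labels, so p-values measure the spread between these libraries.

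Ependymal cells line the ventricles and bear tufts of motile cilia that move cerebrospinal fluid. The core of a motile cilium, the axoneme, is built on the same plan as the core of the sperm tail, and the transcription factor Foxj1 with factors of the RFX family switches on many of its genes. The sperm tail adds parts that cilia lack, among them outer dense fibres and a fibrous sheath. A testis name therefore says where a gene was first found and not where it is used.

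Counts assigned to genes ranged from 42422439 to 52175180 in IP and from 37203427 to 44754345 in Input. Foxj1 had 32.2, 345 and 427 counts-per-million (CPM) in IP 1, IP 3 and IP 4, against 4.34 to 13 CPM in Input. It was called higher at a log2 fold of 5.03 ± 0.78 (SE) by edgeR (adjusted p = 0.0147). With the replicate number as a block, the log2 fold was 4.40 (edgeR adjusted p = 0.133). The block fit also left out Input 2, which has no partner, here and below. Without Input 2 alone the edgeR adjusted p of Foxj1 was 0.0542. It lay between 0.0542 and 0.05845 without any 1 Input and was 0.0503 without IP 4. Without IP 1 the log2 fold was 5.55 (edgeR adjusted p = 3.3e-06). Dcdc2a had 43.6, 411 and 175 CPM in IP, against 27.7 to 73.9 CPM in Input (log2 fold 2.21 ± 0.63, edgeR adjusted p = 0.0743, DESeq2 adjusted p = 0.00416). Without IP 1 its log2 fold was 2.69 (edgeR adjusted p = 0.00206), and without IP 3 it was 1.27 (edgeR adjusted p = 0.214). Of 8 ependymal markers 7 were called higher in IP, where 3.64% of all tested genes were. The summed level of the 8 was 190, 2203 and 1922 CPM in IP 1, IP 3 and IP 4, against 27.5 to 35.6 CPM in Input. IP 1 thus stood apart from the other IP libraries. For the testis-named genes, the calls, and the folds that turned on IP 1, are given with and without it. For other genes, apart from Foxj1 and Dcdc2a, they are given with all libraries only. Of 6 mural and fibroblast markers 4 were also called higher, with sums of 67.2, 957 and 431 CPM in IP, against 28.3 to 61.7 CPM in Input. Summed neuron markers stayed at 6228 to 7458 CPM in IP, against 8518 to 11050 CPM in Input, and 0 of 6 were called (1 lower at an unadjusted p under 0.05, 0 by DESeq2). Among the other markers, Gfap (astrocytes) and Cdh5 (endothelium) were called higher and Mbp (oligodendrocytes) lower, 1 gene of each list of 5, 4 and 5. Astrocyte sums were 250, 626 and 581 CPM in IP, against 277 to 321 CPM in Input, and endothelial sums 3.48, 16.8 and 9.48 CPM in IP, against 3.74 to 6.42 CPM in Input. Oligodendrocyte sums were 1842, 2883 and 3542 CPM in IP, against 3338 to 4642 CPM in Input. Of 5 choroid plexus and 4 microglia markers 0 were called (1 of each list higher at an unadjusted p under 0.05, 0 by DESeq2). Choroid plexus sums were 1267, 2903 and 2993 CPM in IP, against 2247 to 4095 CPM in Input. Microglia sums were 56, 52.05 and 87.0 CPM in IP, against 48.1 to 71.0 CPM in Input. The part of these other cell types in the results below was not tested. In such bulk RNA, fewer cells of a type and less RNA per cell cannot be told apart.

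The 83 genes fell into 3 classes by their counts. Near 0, with at most 3 counts in every library, were 23 genes, or 27.7%, where 35.7% of all symbols in the tables were. A sparse class of 18 genes had more than 3 counts somewhere but too few to be tested. The remaining 42 genes passed the filter on low counts, where 53.4% of all symbols did. A count of 3 corresponded to between 0.0585 and 0.0819 CPM in a library, counting error only. The near-0 share of the testis-named genes was thus somewhat under that of the whole table, and no test was made of that difference.

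**Figure D1:**
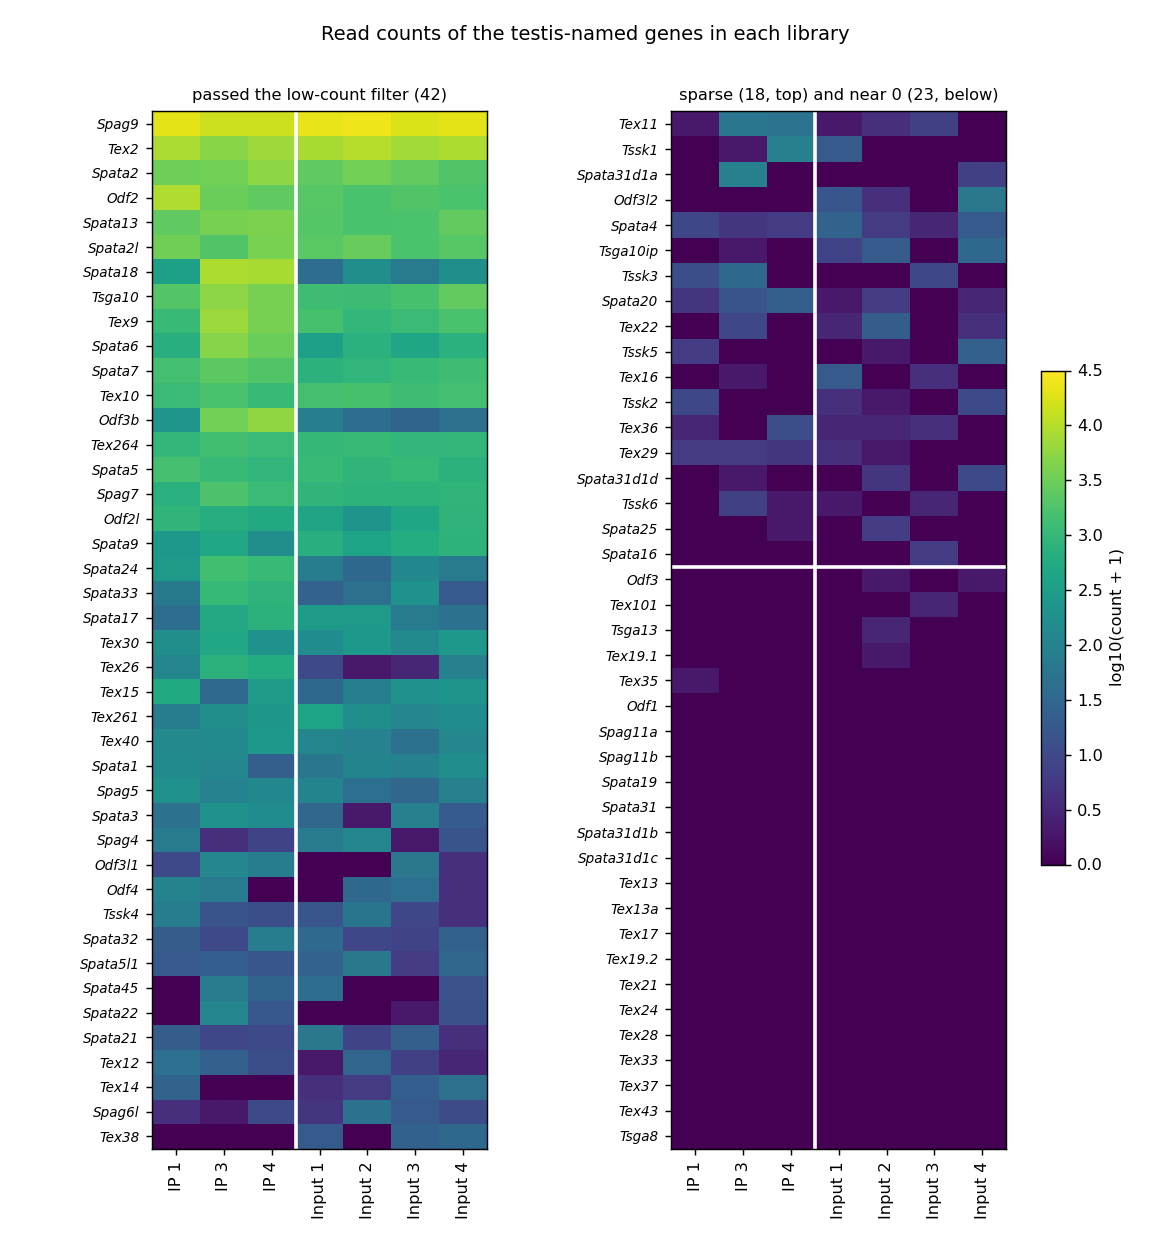
Counts of the 83 testis-named genes (vertical axis) in the 3 IP and 4 Input libraries (horizontal axis), with colour giving log10 of the count plus 1; tested genes are on the left, and sparse and near-0 genes on the right. The 23 near-0 genes form an empty block, and the 18 sparse genes have low counts, often in a few libraries.

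IP was set against Input with edgeR's quasi-likelihood test over all 17375 genes tested. Odf3b, Spata18 and Spata24 were called higher in IP, 3 of the 42 tested genes, or 7.14%, where 3.64% of all tested genes were called higher. None was called lower in IP, where 2.16% of all tested genes were (0 of 42 by edgeR, and 4 by DESeq2, where 6.34% of all tested genes were lower). At an unadjusted p under 0.05 edgeR had 9 of the 42 higher and 4 lower, where 13.3% of all tested genes were higher and 9.4% lower. Every IP library lay above every Input library for 4 of the 42 genes, Odf3b, Spata18, Tex26 and Spata24, where 9.55% of all tested genes did so. Every IP library lay below every Input library for Tex2 and Spag9, where 10.4% of all tested genes did so. The median log2 fold of the 42 genes was 0.58, with 29 positive and 13 negative, and that of all tested genes was 0.06, with 53.1% positive.

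The counts of calls turned on the libraries used. Without IP 1, 10 of 48 tested genes were called higher, adding Spata13, Spata33, Spata6, Spata7, Tex26, Tex9 and Tsga10, where 12.5% of all tested genes were. Without IP 1, Spag9 and Tex2 were called lower, where 9.55% of all tested genes were lower. DESeq2 over all 7 libraries called 6 higher, adding Spata33, Spata6 and Tex26, where it called 8.71% of all tested genes higher. With the replicate number as a block edgeR called none of them, where it called 0.54% of all tested genes higher. That fit lacked Input 2, so the block and the loss of that library cannot be told apart. Without IP 4 edgeR also called none, where it called 0.0556% of all tested genes higher. The same held without Input 1, 2, 3 or 4, where the shares of all tested genes were 0.123%, 0.0704%, 0.0235% and 0.0236%. Without IP 3 it called Odf3b and Spata18, where it called 1.91% of all tested genes higher. Where the share of all genes was this low, a count of 0 among the testis-named genes says nothing particular to them.

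Odf3b showed the largest log2 fold of the 42 tested genes. It belongs with Odf3 to a family of proteins with SHIPPO repeats that associate with ciliary microtubules (ENSMUSG00000047394.8, chromosome 15, 89377449 to 89379282, minus strand, build mm10). It had 4.35, 76.9 and 109 CPM in IP 1, IP 3 and IP 4, against 2.01, 0.916, 0.737 and 1.08 CPM in Inputs 1 to 4. Every IP library was above every Input, with IP 1 far nearer to Input than the other IP libraries were. Odf3b averaged 63.3 ± 53.5 CPM in IP (SD, n = 3) and 1.19 ± 0.57 CPM in Input (SD, n = 4), and it rose in IP by 5.73 ± 0.93 on the log2 scale (SE; edgeR adjusted p = 0.0159). Set against its own lane's Input, which bears the same number, the log2 ratio was 1.09 for IP 1, 6.62 for IP 3 and 6.59 for IP 4. Without IP 1 the log2 fold was 6.28. With the block, which left out Input 2, it was 5.18 and the call was lost (edgeR adjusted p = 0.163). Leaving out Input 2 alone also lost the call (edgeR adjusted p = 0.0556). Without IP 4 its edgeR adjusted p was 0.0524, and without any 1 Input it lay between 0.0556 and 0.0644.

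Spata18, also called Mieap, is known as a p53-induced gene of mitochondrial quality control (ENSMUSG00000029155.16, chromosome 5, 73651379 to 73679512, plus strand). It had 7.31, 196 and 160 CPM in IP 1, IP 3 and IP 4, against 0.981, 3.69, 1.94 and 4.32 CPM in Inputs 1 to 4. Again the groups did not overlap and IP 1 lay close to the highest Input. Spata18 averaged 121 ± 100 CPM in IP (SD, n = 3) and 2.73 ± 1.54 CPM in Input (SD, n = 4), a rise of 5.47 ± 0.98 in log2 fold (SE, edgeR adjusted p = 0.0202). Within lanes the log2 ratios were 2.84, 6.63 and 5.20 for numbers 1, 3 and 4, and without IP 1 the log2 fold was 6.02. The call was lost with the block (log2 fold 4.99, edgeR adjusted p = 0.0565), without the filter on low counts (0.0672), without IP 4 (0.0585) and without any 1 Input (0.0600 to 0.0710). By mean IP level per kb of exon, Spata18 and Odf3b ranked 1 and 2 among the testis-named genes, at 57.5 and 35.8 CPM per kb. IP 3 and IP 4 carried these means. Tex40, without a single exon length, was not ranked. In Input Spata18 and Odf3b stood at 19 and 22 in that order of levels, at 1.30 and 0.671 CPM per kb.

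The promoters of these genes are shown beside that of Odf3, the near-0 member of the Odf3b family, because the family splits between called and near 0. Each runs from 250 bases before to 50 after the RefSeq start (GRCm38.p6), 5′ to 3′ on the gene's strand, with capitals marking the letters GTTGCC, a part of the X-box that RFX factors bind. Odf3b lies at chr15:89379205-89379504 (minus strand), Spata18 at chr5:73651130-73651429 (plus strand) and Odf3 at chr7:140847666-140847965 (plus strand).
Odf3b: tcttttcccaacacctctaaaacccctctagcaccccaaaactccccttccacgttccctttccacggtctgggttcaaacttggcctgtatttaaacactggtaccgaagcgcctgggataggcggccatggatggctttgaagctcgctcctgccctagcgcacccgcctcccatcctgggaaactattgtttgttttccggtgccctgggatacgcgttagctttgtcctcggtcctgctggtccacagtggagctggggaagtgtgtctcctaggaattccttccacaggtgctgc
Spata18: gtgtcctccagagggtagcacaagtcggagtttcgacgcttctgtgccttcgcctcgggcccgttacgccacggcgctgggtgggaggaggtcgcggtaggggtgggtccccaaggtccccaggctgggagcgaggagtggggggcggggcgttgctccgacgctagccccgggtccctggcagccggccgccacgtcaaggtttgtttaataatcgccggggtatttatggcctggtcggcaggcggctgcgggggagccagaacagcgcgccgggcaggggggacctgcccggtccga
Odf3: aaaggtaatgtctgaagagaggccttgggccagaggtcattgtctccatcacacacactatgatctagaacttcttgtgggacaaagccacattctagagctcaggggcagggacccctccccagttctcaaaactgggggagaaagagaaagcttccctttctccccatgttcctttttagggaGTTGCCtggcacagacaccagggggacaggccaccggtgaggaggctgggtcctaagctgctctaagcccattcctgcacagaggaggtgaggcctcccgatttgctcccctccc
GTTGCC, read on both strands, was in neither the Odf3b nor the Spata18 window and stood once in that of Odf3, 65 bases before the start. It was held by 12.5% of all 32851 RefSeq promoters. Of the 84 promoters found for 67 of the 83 genes, 20.2% held it. Some genes had several promoters. By promoter, it was in 4 of 22 for tested tail and axoneme genes and 2 of 29 for other tested genes. For sparse genes it was in 4 of 14 promoters, and for near-0 genes in 7 of 19. The forkhead letters GTAAACA, on either strand, were in 3.65% of all promoters and in none of the 84. The 2 letter strings share no overlap. The windows also differed in CpG pairs, with 12 for Odf3b, 30 for Spata18 and 2 for Odf3. Near-0 genes had a median of 2 CpG pairs per window and sparse genes 4.5, against 19 in the tested tail and axoneme genes, 22 in the other tested genes and 7 in all promoters.

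Within that family the levels were far apart. Odf3 had no count in any IP library, against 0, 1, 0 and 1 counts in Inputs 1 to 4. Odf3l1 had 0.180, 2.60 and 1.5 CPM in IP, against 0, 0, 1.67 and 0.0737 CPM in Input, where Input 3 lay within the IP range (log2 fold 1.71 ± 1.80 SE, edgeR adjusted p = 0.638). Odf3l2 had no count in any IP library, against 15, 3, 0 and 61 counts in Input, at least 23.6-fold lower in IP (with 3 counts over the IP group as the limit). It was too sparse to be tested. Input 4 held 77.2% of its counts, and without that library the bound was 7.09-fold.

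Spata24 (ENSMUSG00000024352.12, chromosome 18, 35656689 to 35662186, minus strand) was the remaining called gene. It had 5.37, 30.3 and 21.1 CPM in IP 1, IP 3 and IP 4, against 1.99, 0.693, 3.36 and 1.70 CPM in Inputs 1 to 4. The groups did not overlap, and IP 1 again was the lowest IP library. The log2 fold was 3.29 ± 0.66 (SE; edgeR adjusted p = 0.0243), and the log2 ratios within lanes were 1.41, 3.16 and 3.61 for numbers 1, 3 and 4. Without IP 1 the log2 fold was 3.73. The call was lost with the block (log2 fold 2.77, edgeR adjusted p = 0.0993), without IP 3 (0.0606), without IP 4 (0.0891) and without any 1 Input (0.0652 to 0.0843). Its exons overlap another model on the same strand, itself named SPATA24, over 41.9% of their length, so its count is uncertain. Reads in more than 1 gene were set aside, and they were 1.51% to 2.01% of each IP library, against 9.33% to 12.9% of each Input library. Whether this difference bears on overlapped genes such as Spata24 was not tested.

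**Figure D2:**
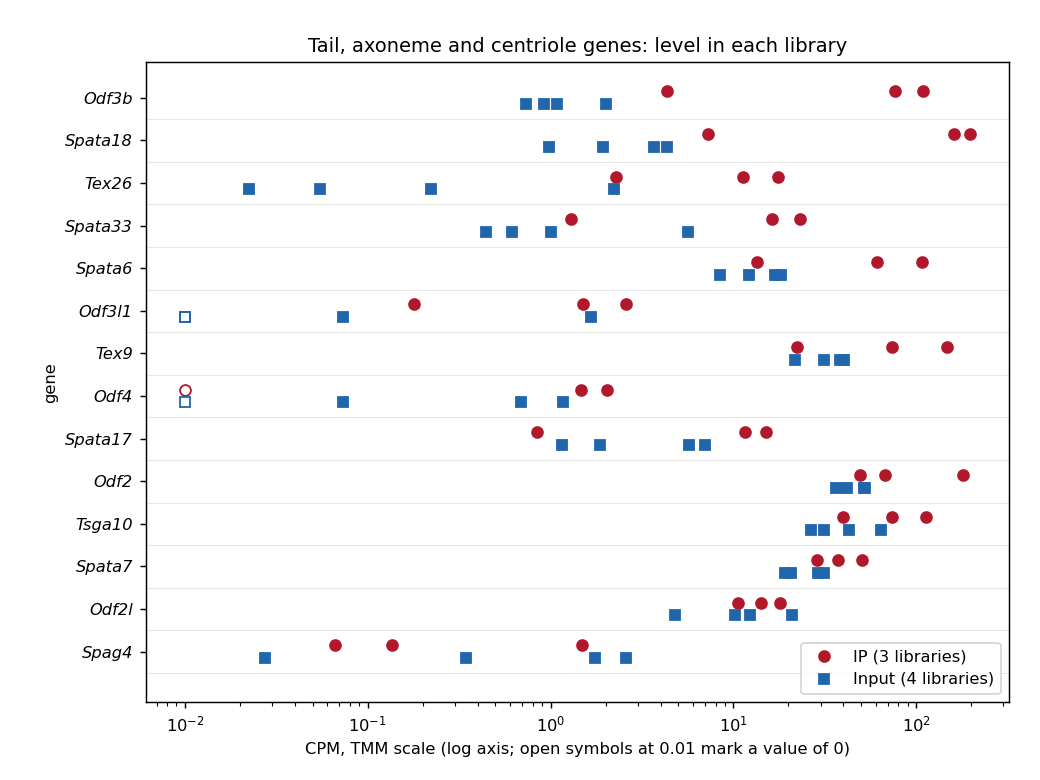
CPM (log axis) of testis-named genes assigned to the tail, axoneme and centriole that were tested, in 3 IP libraries (circles) and 4 Input libraries (squares), 1 point a library and 1 line a gene; open symbols mark a value of 0. Odf3b, Spata18 and Tex26 have every IP point right of every Input point, and most genes lower down overlap.

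The genes were then read by role. Assigned to the tail, axoneme and centriole were 23 genes, of which 6 were near 0, 3 sparse and 14 tested. Of the 14, Odf3b and Spata18 were called higher and none lower (at an unadjusted p under 0.05, 8 higher and 0 lower; 5 higher and 0 lower by DESeq2). Over all tested genes the shares higher were 3.64% by edgeR, 13.3% at that unadjusted p and 8.71% by DESeq2. The log2 fold was positive for 13 of the 14, beside 53.1% of all tested genes, and its median was 1.29, beside 0.06. The sign of Odf2l turned without Input 2. Spata18 was placed in this group although its known work is mitochondrial, and without it 1 of 13 was called. The other counts and the medians of this group include it. Roles were assigned with earlier results of these data known, so these shares are description only. Within lanes, the log2 ratio was positive for 11 of the 14 in number 1, 14 in number 3 and 11 in number 4, with medians of 0.92, 1.71 and 1.30. Over all 42 tested testis-named genes it was positive for 22, 32 and 27 in that order, with medians of 0.085, 0.62 and 0.24.

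**Figure D3:**
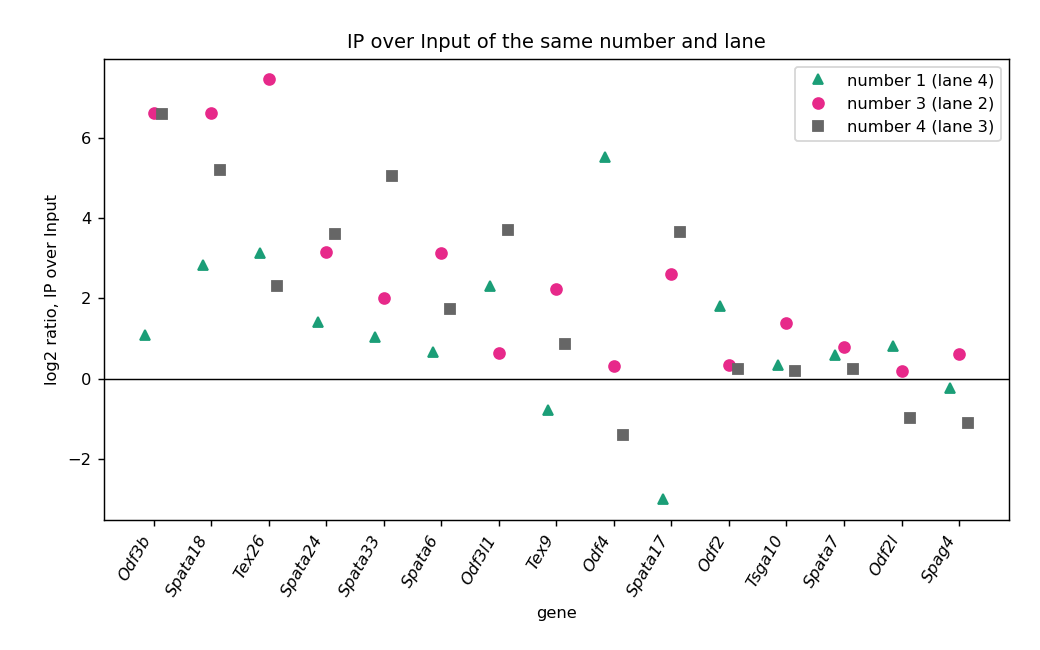
Log2 ratio of each IP library to the Input of the same number and lane (vertical axis) for the 14 tested tail, axoneme and centriole genes and Spata24 (horizontal axis), with a symbol for each of numbers 1, 3 and 4. Of the 14 tail, axoneme and centriole genes 9 are positive in all 3 numbers and 0 are negative in all 3.

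Spata6, needed in the mouse to build the connecting piece between sperm head and tail, had 13.5, 108 and 60.7 CPM in IP 1, IP 3 and IP 4, against 8.46, 16.9, 12.2 and 18.2 CPM in Inputs 1 to 4. IP 3 and IP 4 were above every Input, and IP 1 lay within the Input range. The log2 fold was 2.12 ± 0.57 (SE) and missed the threshold (edgeR adjusted p = 0.0600). The gene passed without IP 1 (log2 fold 2.59, edgeR adjusted p = 3.03e-05) and passed with DESeq2 (adjusted p = 0.00383). It did not pass without IP 3 (log2 fold 1.41, edgeR adjusted p = 0.161), without IP 4 (0.142) or with the block (0.157). Spata33, which ties calcineurin to mitochondria of the mouse sperm midpiece, had 1.30, 23.1 and 16.2 CPM in IP, against 0.613, 1.01, 5.68 and 0.442 CPM in Input. Input 3 lay above IP 1 and below the other IP libraries (log2 fold 2.81 ± 1.07, edgeR adjusted p = 0.160, and 0.0162 without IP 1). Without IP 3 the Spata33 log2 fold was 2.18 (edgeR adjusted p = 0.313). Spata33 lies within the span of another gene model, so reads cannot be assigned to it with certainty.

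Tex26 had 2.28, 17.5 and 11.3 CPM in IP 1, IP 3 and IP 4, against 0.221, 0.0224, 0.0546 and 2.24 CPM in Inputs 1 to 4. The groups did not overlap, but IP 1 and Input 4 were nearly level. The log2 fold was 4.03 ± 1.36 (SE, edgeR adjusted p = 0.119), and without IP 1 it was 4.5 (edgeR adjusted p = 0.0337). Without IP 3 it was 3.42 (edgeR adjusted p = 0.2145). Tex9 had 22.4, 148 and 73.8 CPM in IP, against 38.3, 21.7, 31.2 and 40.4 CPM in Input, with IP 1 inside the Input range (log2 fold 1.31 ± 0.51, edgeR adjusted p = 0.166, and 0.000433 without IP 1). Without IP 3 the Tex9 log2 fold was 0.54 (edgeR adjusted p = 0.5305). Tex9 exons overlap, over 32.3% of their length and on the other strand, those of Mns1, a protein of the axoneme. Mns1 was called higher (1.78, 19.5 and 14.2 CPM in IP, against 1.67, 0.559, 1.88 and 0.860 CPM in Input; log2 fold 3.25 ± 0.78, edgeR adjusted p = 0.0399). With the strand setting unknown, it is uncertain how reads from the shared stretches of this pair were counted.

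Odf2 ran the other way among the IP libraries. Its protein is part of the outer dense fibres and, in other cells, of the appendages of the mother centriole that docks a cilium. It had 181, 67.4 and 49.5 CPM in IP 1, IP 3 and IP 4, against 51.6, 36.6, 52.8 and 42.1 CPM in Inputs 1 to 4. IP 1, the library lowest in ependymal markers among the IP libraries, was the highest here, and IP 4 lay inside the Input range (log2 fold 1.12 ± 0.39, edgeR adjusted p = 0.127). Without IP 1 the log2 fold was 0.35 (edgeR adjusted p = 0.315). Odf1, a core protein of the outer dense fibres, had no count in any library.

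Tsga10, a protein of the sperm tail and centrosome, had 39.6, 114 and 73.4 CPM in IP, against 31.3, 26.7, 43.1 and 64.4 CPM in Input. Spata7, mutated in retinal ciliopathies, had 28.9, 50.6 and 37.5 CPM in IP, against 19.3, 20.7, 29.2 and 31.4 CPM in Input. In both, IP 3 and IP 4 were above every Input and IP 1 was inside the Input range. Their log2 folds were 0.87 and 0.63 (edgeR adjusted p = 0.217 and 0.232), and without IP 1 they were 1.17 and 0.81 (edgeR adjusted p = 0.0129 and 0.0490). Without IP 3 they were 0.44 and 0.39 (edgeR adjusted p = 0.564 and 0.525). Spata17, an IQ-motif protein, had 0.841, 11.6 and 15 CPM in IP, against 7.04, 5.70, 1.86 and 1.15 CPM in Input, with IP 1 below every Input (log2 fold 1.22 ± 0.88, edgeR adjusted p = 0.466). Without IP 1 its log2 fold was 1.75 (edgeR adjusted p = 0.0556). The other tested genes of this group had log2 folds of 1.27 (Odf4), 0.24 (Odf2l) and -1.06 (Spag4, a SUN-domain protein of the spermatid nuclear envelope), none called, and without IP 1 these were 0.60 for Odf4 and -3.50 for Spag4.

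Of the Spag genes outside the naming rule, Spag6, Spag8 and Spag16 were called higher, with log2 folds of 3.07, 4.48 and 3.94 (edgeR adjusted p = 0.034, 0.042 and 0.032). For each, IP 3 and IP 4 were above every Input, but IP 1 lay inside the Input range. IP 1 had 11.3, 2.60 and 5.91 CPM, against 7.44 to 12.8, 0.245 to 2.90 and 3.14 to 7.66 CPM in Input. Spag17 and Spag1 had log2 folds of 4.47 and 0.77 without a call (edgeR adjusted p = 0.097 and 0.240), although every IP library lay above every Input. Spag6l, a close copy of Spag6 that the rule did take, had 0.0601, 0.0220 and 0.176 CPM in IP, against 0.0981, 1.07, 0.491 and 0.246 CPM in Input. Its IP and Input ranges overlapped (log2 fold -2.43 ± 1.43, edgeR adjusted p = 0.357). Reads that align to both copies were not counted to either, so both levels are uncertain.

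A group of 13 genes has known work in many cell types, and 12 of them were tested. None was called by edgeR (at an unadjusted p under 0.05, 0 higher and 2 lower; 0 higher and 2 lower by DESeq2). Shares of all tested genes were 3.64% higher and 2.16% lower by edgeR, and 13.3% and 9.4% at that unadjusted p. By DESeq2 they were 8.71% and 6.34%. The log2 folds of the 12 were positive for 6 and negative for 6, with a median of 0.00. The highest mean levels per length of all ranked genes in Input were here, at 46.9 CPM per kb for Spag9, 38.1 for Tex2, 15.1 for Spata2l, 14.4 for Spata2 and 13.9 for Spag7. In IP the same genes stood at 30.1, 24.7, 17.1, 18.1 and 16.8 CPM per kb in that order. Spag9 and Tex2 thus came after Spata18 and Odf3b by the mean of the IP libraries, and Spata24 followed at 18.9 CPM per kb.

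Spag9, the JIP4 scaffold of kinase signalling and motor transport, had 411, 320 and 282 CPM in IP 1, IP 3 and IP 4, against 549, 546, 504 and 504 CPM in Inputs 1 to 4. Tex2, a lipid transfer protein of the endoplasmic reticulum, had 168, 110 and 135 CPM in IP, against 202, 227, 208 and 213 CPM in Input. For both, every IP library lay below every Input. Their log2 folds of -0.64 ± 0.18 and -0.63 ± 0.19 (SE) did not pass (edgeR adjusted p = 0.0704 and 0.0875). They passed without IP 1 (log2 folds -0.81 and -0.80, edgeR adjusted p = 0.000957 and 0.00253) and with DESeq2 (adjusted p = 0.0260 and 0.0399). Without IP 3 they did not pass (log2 folds -0.62 and -0.50, edgeR adjusted p = 0.121 and 0.165).

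Of the others, Spata13 (the exchange factor Asef2) had 49.7, 84.0 and 80.7 CPM in IP, against 51.2, 36.6, 46.0 and 63.4 CPM in Input, with IP 1 inside the Input range (log2 fold 0.54 ± 0.27, edgeR adjusted p = 0.266, and 0.0288 without IP 1). Without IP 3 the Spata13 log2 fold was 0.40 (edgeR adjusted p = 0.487). The log2 folds were 0.33 for Spata2 (an adaptor of the deubiquitinase CYLD), 0.28 for Spag7, 0.19 for Spata2l and 0.05 for Spata5 (an AAA ATPase of ribosome biogenesis). They were -0.05 for Tex264 (a receptor for autophagy of the endoplasmic reticulum, with a positive sign when libraries were scaled by total counts) and -0.39 for Tex10 (ribosome biogenesis). Without IP 1 the signs of Spata5 and Tex264 turned, and without IP 3 that of Spag7. All 7 genes had overlapping IP and Input ranges, and apart from Spata13 none was called with or without IP 1. Spata9, outside this group, had 4.97, 10.4 and 3.30 CPM in IP, against 15.9, 8.99, 16.8 and 19.9 CPM in Input, where IP 3 lay above Input 2 (log2 fold -1.31 ± 0.48, edgeR adjusted p = 0.137, DESeq2 adjusted p = 0.0429).

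**Figure D4:**
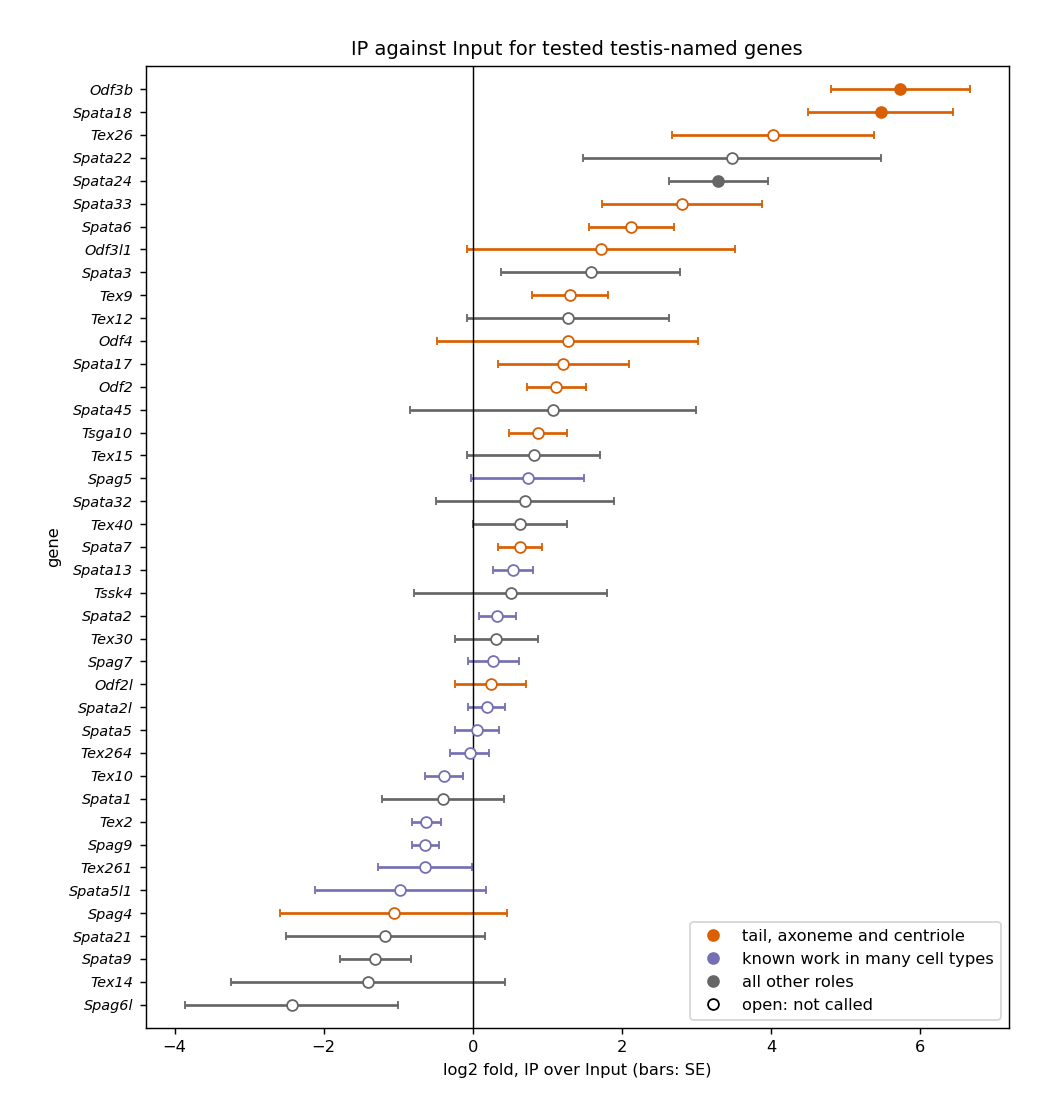
Log2 fold of IP over Input with its SE for the tested testis-named genes, ordered by fold and coloured by role, with filled points for the 3 genes called by edgeR. Tex38, with no count in any IP library, is left out; the tail, axoneme and centriole genes lie mostly right of 0 and those with known work in many cell types lie around it.

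Genes of meiosis, the germ-cell nucleus, the acrosome and the germ-cell surface numbered 15, of which 7 were near 0, 4 sparse and 4 tested. None of the 4 was called in either direction (0 at an unadjusted p under 0.05 and 0 by DESeq2). By edgeR 3.64% of all tested genes were called higher and 2.16% lower. The log2 folds of the 4 were positive for 3 and negative for 1, with a median of 1.04. Spata22, a meiosis gene, had 0, 112 and 16 counts in IP, against 0, 0, 1 and 12 counts in Input, with most of its reads in IP 3 (log2 fold 3.48 ± 2.0 SE, edgeR adjusted p = 0.343). Another model covers 80.5% of its exons, so its count is uncertain. Among the near-0 genes, Tex101, a germ-cell surface protein, Tex19.2 and the Spata31, Spata31d1b and Spata31d1c genes had at most 3 counts in every library. Tex19.1, which restrains retrotransposons in the germ line, had 1 count in Input 2 and 0 in the other libraries. Tex15, also of meiosis, was the highest by mean CPM of those tested, with 11, 0.727 and 5.23 CPM in IP, against 0.760, 1.92, 5.0 and 5.21 CPM in Input. The IP values spanned the whole Input range, with IP 3 just below every Input (log2 fold 0.81, edgeR adjusted p = 0.656, and -0.11 without IP 1).

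The sparse genes differed in where their counts fell. Spata31d1a had 0, 90 and 0 counts in IP, against 0, 0, 0 and 6 counts in Input, the highest single count in the class. Tex11, an X-linked gene of meiotic recombination (chromosome X), had 1, 57 and 51 counts in IP 1, IP 3 and IP 4, against 1, 3, 6 and 0 counts in Inputs 1 to 4. IP 3 and IP 4 were above every Input and IP 1 was not. Tsga10ip had 0, 1 and 0 counts in IP, against 7, 18, 0 and 32 counts in Input. Spata4 alone of the 18 had counts in every library, and the lowest top count in the class was 5.

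Of the 6 testis-specific serine kinases, none was near 0, 5 were sparse and Tssk4 was tested (log2 fold 0.51 ± 1.29, edgeR adjusted p = 0.866). Without IP 1, which held 41.5% of its counts, the Tssk4 log2 fold was -0.87. Tssk1 had 0, 1 and 89 counts in IP, against 18, 0, 0 and 0 counts in Input. It lies within the span of Dgcr2, so these reads cannot be assigned with certainty. Tssk3 had 11, 31 and 0 counts in IP, against 0, 0, 8 and 0 counts in Input. In Tssk2, Tssk5 and Tssk6 the highest single counts were 9, 23 and 6. No kinase had counts in all libraries of 1 group and none of the other.

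Of the 26 genes given to no role, 10 were near 0, 5 sparse and 11 tested, with a median log2 fold of 0.32 over the 11. Spata24 was called higher and none lower (at an unadjusted p under 0.05, 1 higher and 2 lower, and 1 higher and 2 lower by DESeq2). Over all tested genes 3.64% were higher and 2.16% lower by edgeR, and 13.3% and 9.4% at that unadjusted p. By DESeq2 the shares were 8.71% and 6.34%. Tex38 had no count in any IP library, against 18, 0, 24 and 31 counts in Input, at least 22.7-fold lower in IP (with 3 counts over the IP group as the limit; edgeR adjusted p = 0.122). Input 2 also had none, so the groups met at 0.

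The 23 near-0 genes held 8 counts in all over the 7 libraries, and 18 of them had none anywhere. Those assigned to the tail were Odf1, Odf3, Spata19 (mitochondria of the midpiece), Tex33, and Tex37 and Tex43 (microtubule proteins of the sperm tail). The others were Spag11a and Spag11b (defensin-like proteins of the epididymis), Tex13, Tex13a, Tex17, Tex21, Tex24, Tex28, Tex35, Tsga8, Tsga13 and the germ-cell genes above. Tex17 is listed in RefSeq as another name of Lin28a, which has a line of its own in the tables, so its count of 0 tells nothing of Lin28a. In each library a count of 0 allows up to 3 counts, between 0.0585 and 0.0819 CPM.

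Germ-cell genes with other names were read beside them. Of 21 listed (protamines, meiosis and acrosome genes among them), 10 were near 0, 4 sparse and 7 tested, and 0 were called by edgeR (at an unadjusted p under 0.05, 0 higher and 3 lower; 0 higher and 3 lower by DESeq2). Over all tested genes the shares lower were 2.16% by edgeR, 9.4% at that unadjusted p and 6.34% by DESeq2. The summed level of the 21 genes was 13.6, 8.72 and 6.96 CPM in IP 1, IP 3 and IP 4, against 18.4 to 31.7 CPM in Input. Every IP sum was thus below every Input sum, and a few genes carried the sums. Dazl, an RNA-binding protein of germ cells, had 2.20, 3.35 and 3.18 CPM in IP, against 5.64, 5.83, 7.24 and 15.9 CPM in Input (log2 fold -1.57 ± 0.53, edgeR adjusted p = 0.115). Acr, the acrosomal protease acrosin, had 4.75, 0 and 0.605 CPM in IP, against 0.0981, 0.0224, 0 and 0.835 CPM in Input, with IP 1 the highest library (log2 fold 2.89 ± 1.90, edgeR adjusted p = 0.416). Of 16 genes of the fibrous sheath and the CatSper channel, parts of the sperm tail that motile cilia lack, 7 were near 0, 2 sparse and 7 tested, and 0 were called by edgeR (at an unadjusted p under 0.05, 1 higher and 0 lower; 1 higher and 0 lower by DESeq2), where 3.64%, 13.3% and 8.71% of all tested genes were higher by these rules. The sums of these 16 genes were 27.4, 13.1 and 7.12 CPM in IP, against 17.9 to 33.0 CPM in Input, with overlapping ranges.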

How the data were processed

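Each library has a deposited table of raw counts for 32531 gene symbols, which the authors did not normalise. Reads were aligned to mm10 with STAR 2.0.0e and counted with HTSeq, per the submitters' processing notes; for settings, annotation and strand, the labels say nothing (not given in the sources used here). Lines for reads outside single genes (40.1% to 52.1% per library) stayed out of library sizes and tests. Among them, reads aligned to more than 1 place were 19.8% to 39.3% of IP and 20.9% to 21.2% of Input libraries.

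Positions and exon lengths came from GENCODE M21, which shares the mm10 assembly: 80 of the 83 genes matched by symbol, 2 by a RefSeq synonym and 1 (Tex40) matched several. Exons of 20 overlap another gene.

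R 4.3.3 was used with edgeR 4.0.16. Genes passing filterByExpr (at least 10 counts, 15 in total) entered a robust quasi-likelihood fit of all 7 libraries (TMM, group only) with Benjamini-Hochberg adjustment over all tested genes, at a threshold of 0.05. CPM are TMM-scaled, and log2 ratios within lanes used a prior count of 2. DESeq2 1.42.0, other scalings, no filter, a replicate block and leaving out each library were tried. The code was tested on simulated data. The numbers were treated as pairing libraries because the labels put the IP and Input of each number on the same lane. Input 2 has no partner and was left out of the block fit. Deviations of same-numbered libraries correlated across genes at 0.0318, 0.0426 and 0.0258, in each case above that IP's correlation with the other Inputs. These correlations are very weak, and a shared animal and a shared lane cannot be told apart by them.

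The members, roles, lists and tests were chosen with earlier results of these data known. Genes named were those called, the 12 highest per kb among those not called, the 6 sparse genes with the highest single count, the tested genes without overlap between groups, and family members of these. Other genes named, and the CpG counts, were chosen after their values were seen. An IP numbered 2 was not analysed here.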

Additional observations from a re-analysis of the deposited data

Results flagged for a closer look

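For 42 of the 60 testis-named genes above 3 counts (31 of the tail, germ-cell and kinase roles and 11 others described above), the 4 Input libraries were searched for 1 library far from the other 3, by its gap to the nearest as a share of the whole range. Such a library was found for 9 genes. Chance gives about 1 in 20 groups for continuous values, a rate that does not hold for counts near 0, so no excess is read from the 9. Spata16 (Input 3, 0.137 CPM), Spata31d1a (Input 4, 0.147 CPM), Tssk1 (Input 1, 0.442 CPM) and Tssk3 (Input 3, 0.218 CPM) had counts in 1 Input library alone, which sets such a gap by itself. In the other 5, Input 3 was the high library for Spata33 (5.68 CPM) and Odf3l1 (1.67 CPM), and Input 4 for Tex26 (2.24 CPM), Tssk5 (0.565 CPM) and Spata22 (0.295 CPM). The cause was not tested.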

How the results depend on the processing

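Calls depended on the tool, the block fit (which lacked Input 2) and single libraries. Of the testis-named genes, 6 were higher and 4 lower with DESeq2, and 0 higher with the replicate block. Leaving out each library in turn gave 0 to 10 higher and 0 to 2 lower. Over all genes, 1589 were higher and 1156 lower with DESeq2, 92 higher and 29 lower with the block, and 4 to 2259 higher and 16 to 1724 lower with a library left out. Without IP 4 or any 1 Input, 0 testis-named genes were called; without IP 3, 2; without IP 1, 10 higher and 2 lower. No called gene changed sign under any of these settings. Scaling by total counts moved the median log2 fold of all genes to 0.10 from 0.06 and turned the sign of Tex264 alone among the 42. Signs of folds that were not called also turned for Spata5, Tex15, Tex264 and Tssk4 without IP 1, Spag7, Spata45 and Tex30 without IP 3, Spata1 and Spata32 without IP 4, Odf2l and Spata5 without Input 2, and Spata5 without Input 4 and with the block. The bound of Odf3l2, recomputed without each Input after its values were seen, lay between 7.09-fold and 31.5-fold, and that of Tex38 between 17.9-fold and 30.3-fold. The near-0 class held 29 genes at a limit of 10 counts, 18 at 0, and 23 or 24 with a library left out. For sparse and near-0 genes, depth limits what could be seen: 3 counts were 0.0585 to 0.0819 CPM.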
